A study of Homo sapiens with 2 samples.

Results

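The expression of ALK, EML4 and the ALK-related genes LTK, MDK and PTN was examined in H2228 cells without treatment and with interleukin 4 (IL4). H2228 cells derive from a human lung adenocarcinoma and harbour variant 3 of the EML4-ALK fusion, so every value below comes from 1 fusion-positive line. RNA of untreated cells and of cells given 100 ng/mL IL4 for 30 min, per the series description, was hybridized to 2 Affymetrix arrays (Human Genome U133 Plus 2.0), 1 for each condition. The sample labels also mention 48 h of transfection with EML4-ALK plasmids, siRNAs or negative controls for both samples, and whether these cells were transfected could not be determined. This bears on the present genes, because such an siRNA is directed at the fusion transcript. All probe sets annotated to a single one of the 5 genes were taken, which gave 16 of the 54675 probe sets of the array, and the 5 genes stand among 19775 named genes. ALK had 2 probe sets, EML4 had 7, LTK had 2, MDK had 1 and PTN had 4, and 0 probe sets were shared with another gene. There are no replicates, so no test was made and each difference is one between 2 arrays.

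ALK is a receptor tyrosine kinase that is normally most active in the developing nervous system, and LTK is its closest relative. EML4 is a protein that binds and stabilizes microtubules. In the EML4-ALK fusion, the first part of EML4, which lets the protein associate with itself, is joined to the intracellular part of ALK with its kinase domain, and the kinase becomes active without ligand. The growth factors midkine (MDK) and pleiotrophin (PTN) bind heparin and have been described as ligands of ALK, although ALKAL1 and ALKAL2 are the ligands now best established for ALK and LTK. The fusion transcript starts at the EML4 promoter and ends with ALK sequence, whereas normal EML4 transcripts keep their own end. Probe sets of either gene may therefore read fusion or normal transcripts, and the positions of the probes were not used here, so no probe set was assigned to one of them.

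The promoters are shown because the EML4 promoter drives both EML4 and the fusion, while the promoter at the outer start of ALK drives the normal gene. The sequences are those of RefSeq on GRCh38.p14, from 250 bases before to 50 bases after the start, and 4 of the 5 genes matched an entry: ALK with 2 starts, and EML4, LTK and PTN with 1 each. EML4 lies at chr2:42169103-42169402 on the plus strand. The outer start of ALK lies at chr2:29921537-29921836 and a second start, inside the gene, at chr2:29223774-29224073, both on the minus strand. A transcript from this inner start would lack the part of ALK before it, so it is not the full normal transcript. Capitals mark GGGCGG, the GC box bound by SP1 factors, and CCAAT, the box bound by NF-Y, each on either strand.
EML4: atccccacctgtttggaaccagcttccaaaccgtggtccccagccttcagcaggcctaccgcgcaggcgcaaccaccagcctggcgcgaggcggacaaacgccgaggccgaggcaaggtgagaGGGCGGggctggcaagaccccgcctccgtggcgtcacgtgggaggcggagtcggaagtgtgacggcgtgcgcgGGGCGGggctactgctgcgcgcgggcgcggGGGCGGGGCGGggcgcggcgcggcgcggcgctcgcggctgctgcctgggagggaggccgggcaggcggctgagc
ALK outer start: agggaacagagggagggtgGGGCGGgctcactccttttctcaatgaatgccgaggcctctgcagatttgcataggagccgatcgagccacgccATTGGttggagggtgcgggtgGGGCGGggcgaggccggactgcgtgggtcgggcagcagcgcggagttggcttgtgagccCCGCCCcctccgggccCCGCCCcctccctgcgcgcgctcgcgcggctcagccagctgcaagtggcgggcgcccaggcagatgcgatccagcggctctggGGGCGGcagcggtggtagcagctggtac
ALK inner start: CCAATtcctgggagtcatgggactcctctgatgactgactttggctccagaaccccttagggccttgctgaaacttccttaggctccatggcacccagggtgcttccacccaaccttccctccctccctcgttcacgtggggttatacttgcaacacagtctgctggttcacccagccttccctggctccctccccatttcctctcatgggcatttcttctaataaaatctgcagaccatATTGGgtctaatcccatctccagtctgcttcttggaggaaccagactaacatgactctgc
The EML4 promoter held 4 GGGCGG matches, 2 of which overlap by 1 base, 0 CCAAT matches and 40 CG pairs. The outer ALK promoter held 5 GGGCGG matches, 1 CCAAT match and 28 CG pairs, and the inner one held 0, 2 and 2. Over all 35116 promoters of the table, 45.0% held GGGCGG and 34.6% held CCAAT at least once, and the median number of CG pairs was 14. The share of G and C was 75.7% for EML4 and 71% for the outer and 53% for the inner ALK promoter, against a median of 58.7%. TTCNNNNGAA, the spacing that STAT6 prefers, and TTCNNNGAA, the spacing used by other STAT proteins, each read the same on both strands, and both were found in 0 of these 3 windows and in 6.44% and 7.66% of all promoters. TATAAA was also absent from the 3 windows and stood in 11.5% of all promoters. These counts describe the letters of the windows only.

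The values deposited by the authors are on a log2 scale and were made with RMA, per the submitters' processing notes. RMA subtracts background, brings the arrays to a common distribution and combines the probes of a set into 1 value, and it gives no call of presence or absence. The level of 5.03, which is the median over all probe sets of the mean of both arrays, is used below as one under which a probe set is called dim, which does not show that the transcript is missing. A level also depends on the probes of a set, so a brighter probe set does not show a more abundant transcript, and differences were taken between arrays within a probe set. The labelled cell type was checked first. All 11 markers of epithelium and lung adenocarcinoma were above that median in both arrays. Among them were the surface protein gene EPCAM at 11.80 in untreated cells and 11.62 with IL4 and the surfactant gene SFTPB at 6.31 and 6.13. The suffix of the SFTPB probe set, _x, marks probes that can bind unrelated transcripts, so its reading is uncertain. Between the arrays, the lung lineage factor gene NKX2-1 was 1.96-fold lower with IL4, at 7.88 and 6.91. CDH1, which encodes E-cadherin, was 1.68-fold higher, at 10.18 and 10.92. Both were read by probe sets that can bind several transcripts. Averaged over the 2 probe sets that each gene has, the log2 difference was smaller for NKX2-1, at -0.65, and 0.72 for CDH1. Of 4 leukocyte, 6 fibroblast, 3 endothelial and 3 neural crest markers, 1 each was above the median in both arrays: CD3E, COL1A1, PECAM1 and DBH. COL1A1 was at 10.82 and 11.23, by a probe set that can bind several transcripts. The fibroblast genes COL3A1 and LUM were dim, at 3.67 and 4.45 and at 2.89 and 3.03. PTPRC, which defines leukocytes, was at 2.50 and 2.37, and the endothelial gene CDH5 was at 2.93 in both. The neural crest gene HAND2 was at 4.32 and 4.23. The fibroblast gene DCN was at 5.12 and 4.85, and CD14, LYZ, COL1A2, PDGFRB, VWF and TH were dim in both arrays. In bulk RNA of this kind, fewer cells of a type and less RNA per cell cannot be told apart.

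Both ALK probe sets were above the median level in both arrays and slightly higher with IL4. Probe set 208212_s_at read 8.24 in untreated cells and 8.41 with IL4, a log2 difference of 0.17 or 1.12-fold. Probe set 208211_s_at read 5.84 and 6.07, a difference of 0.23 or 1.17-fold. Both differences are small for this pair of arrays, since 48.1% and 36.0% of all probe sets lay at least as far apart. Their differences were 0.062 from each other, whereas the 5015 genes with 2 probe sets had a median gap of 0.16.

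EML4 was read by 7 probe sets, whose differences were small and of both signs. Its brightest probe set, 223068_at, was at 9.38 in untreated cells and 9.33 with IL4, a log2 difference of -0.05. The other 4 probe sets above the median were all slightly higher with IL4. Probe set 220386_s_at was at 7.81 and 7.98, a difference of 0.17. Probe set 228674_s_at was at 7.31 and 7.41, and 228673_s_at was at 6.35 and 6.48, with differences of 0.10 and 0.13. Probe set 223069_s_at was at 6.18 and 6.40, a difference of 0.21 or 1.16-fold. These 4 differ from 223068_at in the design named by their suffix, which marks probes that can bind several transcripts. The 2 dim probe sets did not share this direction: 232587_at read 4.53 in both arrays, and 1556732_at read 4.46 and 4.33, a difference of -0.12. The 7 differences spanned 0.34, while the quartiles of this span over the 171 genes with 7 probe sets were 0.41 and 0.76. The spread among EML4 probe sets was thus narrower than in most such genes, of which 12.9% had a narrower one. The gap between the control probe sets at the 3' and the 5' end of ACTB fell by 0.30 with IL4 and that of GAPDH fell by 0.02, and the part of RNA integrity in the EML4 values was not tested.

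**Figure D1:**
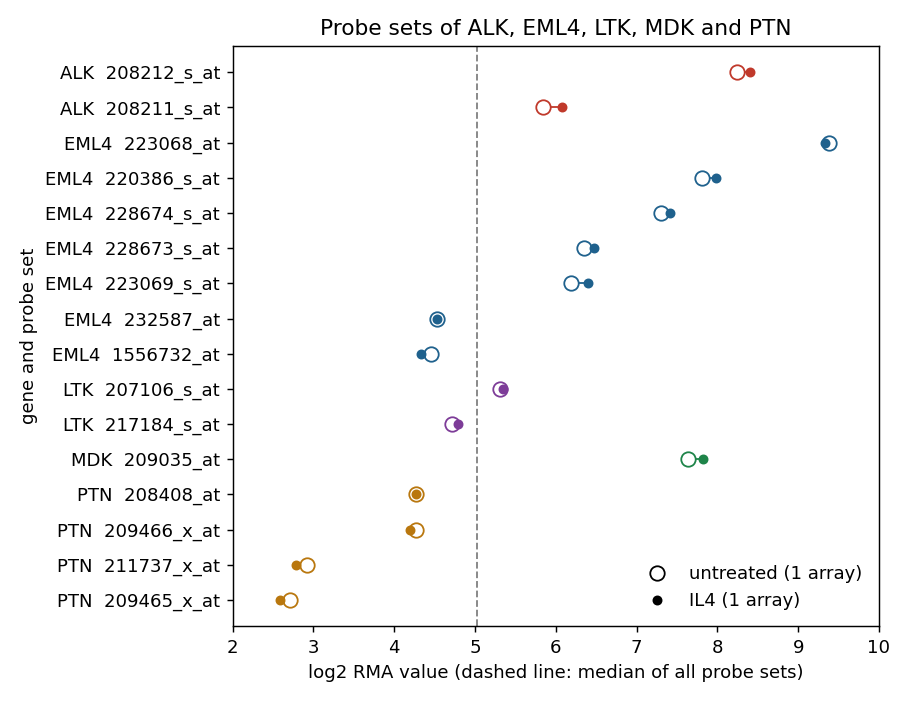
Levels as log2 RMA values (x axis) of the 16 probe sets of ALK, EML4, LTK, MDK and PTN (rows), on the array of untreated H2228 cells (open circles) and on that of IL4-treated cells (filled circles). Both circles of each row lie close together, at most 0.23 apart, and all 4 PTN rows lie left of the dashed median of all probe sets.

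LTK, the receptor most like ALK, was close to the median level. Probe set 207106_s_at read 5.32 in untreated cells and 5.35 with IL4, a log2 difference of 0.04. The dim probe set 217184_s_at read 4.71 and 4.79, a difference of 0.07. Of all probe sets, 85.3% and 76.2% lay at least as far apart.

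The 2 growth factor genes differed in level relative to the array median. MDK, by its only probe set 209035_at, was at 7.63 in untreated cells and 7.82 with IL4, a log2 difference of 0.19 or 1.14-fold, and lay above 83.0% and 84.7% of all probe sets. All 4 probe sets of PTN were dim in both arrays. Probe set 208408_at read 4.27 in both arrays. Probe sets 209466_x_at, 211737_x_at and 209465_x_at read 4.27, 2.92 and 2.70 in untreated cells and 4.19, 2.78 and 2.59 with IL4, with differences of -0.07, -0.14 and -0.12. Their suffix marks probes that can bind unrelated transcripts, so these readings are uncertain. The values of 208408_at and of the EML4 probe set 232587_at were equal in both arrays to the last deposited digit, as were those of 4528 of all probe sets (8.28%).

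None of the 16 probe sets and none of the 5 genes reached a 1.5-fold difference, the level the study used for this comparison. Over the whole array, 6.61% of probe sets and 7.60% of genes reached it, so a count of 0 among so few members is close to the background and is not a result about them. The largest difference was the 0.23 of ALK 208211_s_at. In all, 9 of the 16 probe sets were higher with IL4, 5 were lower and 2 were equal, against 48.2%, 43.5% and 8.28% of all probe sets. Among the 9 at or above the median level, 8 were higher, against 46.4% of all such probe sets, but 4 of these 8 belong to EML4 and 2 to ALK and read the same genes. When all probe sets were divided into 20 classes of mean level, the 16 differences all lay between the 5th and the 95th percentile of their class, and 11 lay between its quartiles. The 5 outside the quartiles were both probe sets of ALK, 220386_s_at and 223069_s_at of EML4 and the probe set of MDK, all on the higher side.

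**Figure D2:**
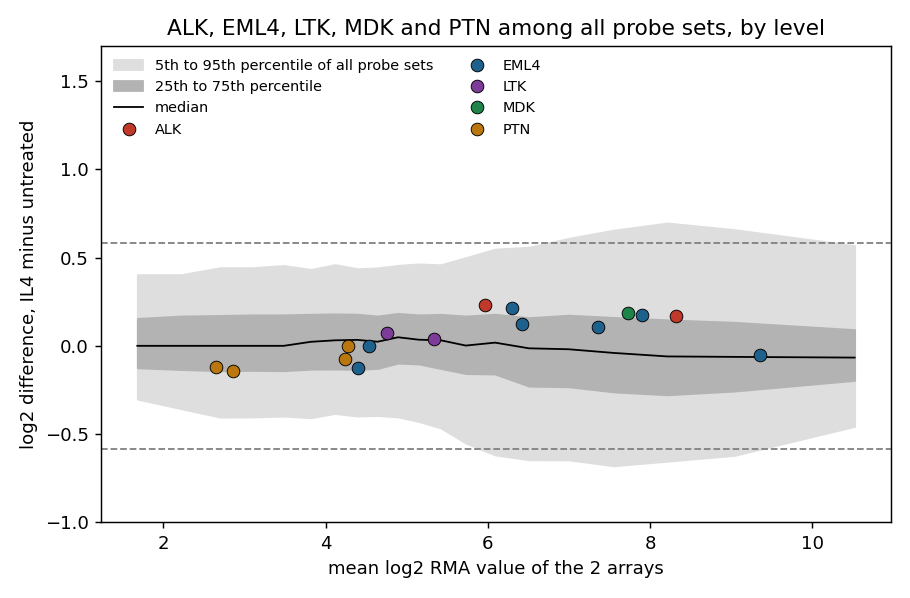
For the 16 probe sets, 1 point each, the log2 difference IL4 minus untreated (y axis) is plotted by mean level on the log2 RMA scale (x axis). Shading shows the 5th to 95th and 25th to 75th percentiles and the line the median of all probe sets in 20 classes of level; all 16 points lie in the light band, inside the dashed 1.5-fold lines.

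The direction of the small differences depended little on the scaling. RMA had already brought the arrays to a common distribution, so a further scaling could move the values little. It carries no information on the variation between cultures or arrays. With a loess correction of the difference on the mean level, ALK had 0.23 and 0.22, MDK 0.24 and the 4 higher EML4 probe sets 0.13 to 0.23. Only 1 of the 14 probe sets with a difference other than 0 changed its sign, EML4 223068_at, from -0.05 to 0.02. With quantile normalization it had -0.02, and 0 of the 14 changed sign. Both probe sets that were equal in the arrays became slightly negative under either scaling. The largest move of any of the 16 under either scaling was 0.070.

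**Figure D3:**
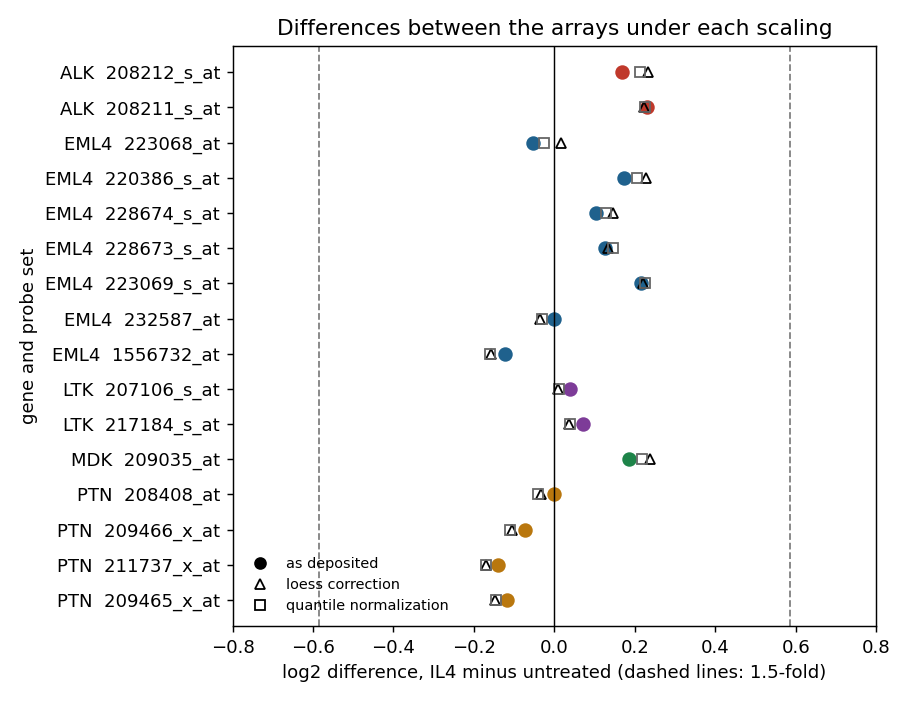
Log2 difference IL4 minus untreated (x axis) of the 16 probe sets (rows) as deposited (filled circles), after a loess correction (triangles) and after quantile normalization (squares). The symbols of each row lie within 0.07 of the deposited value, and no symbol comes near the dashed 1.5-fold lines.

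The genes that act with ALK and EML4 were then described as lists, each gene read from its brightest probe set. Among all genes, 3.21% reached 1.5-fold on the higher side in the IL4 array and 4.39% on the lower side, with a median log2 difference of 0. Of genes at or above the median level, 10.2% reached it on either side. A count of 0 or 1 in a short list is therefore close to the background. Of the best established ALK ligands, ALKAL2 was dim, at 2.36 in untreated cells and 2.51 with IL4, and ALKAL1 was not analysed here. Of the 18 genes for receptors and coreceptors of MDK and PTN, 1 was higher and 0 were lower (5.56%), and their median difference was 0.01. The higher gene was SDC4, a cell surface heparan sulfate proteoglycan, which was at 9.08 in untreated cells and 10.35 with IL4, 2.42-fold higher. PTPRZ1, the receptor phosphatase bound by PTN, was named after its values were seen and was dim, at 1.45 in both arrays.

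None of the other 5 genes of the EML family and none of 5 EML4 partners reached 1.5-fold. EML1 was at 7.87 and 7.63, a difference of -0.24. EML2 and EML3 differed by 0.22 and 0.21, while the dim EML5 and EML6 differed by -0.12 and -0.24. Once probe sets with shared binding were left out, EML1 differed by -0.43, EML2 by 0.09, EML3 by 0.08 and EML6 by 0.18, and EML5 was unchanged. Averaged over probe sets, EML1, EML2 and EML3 differed by -0.33, 0.04 and 0.12, and EML5 and EML6 by -0.10 and -0.03. The sign of none of the 5 depended on the scaling. NEK9, a mitotic kinase that binds EML4, was at 9.00 and 8.87, a difference of -0.13. NEK6 differed by 0.15. NEK7, NUDC and NUDCD3 differed by -0.0083, -0.0035 and -0.026, values that turned to 0.06, 0.07 and 0.04 with the loess correction. Without probe sets of shared binding, NEK6 differed by -0.03, NUDC by 0.17 and NUDCD3 by -0.13.

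Among 28 measured adaptors and effectors of ALK signalling, 2 were higher and 1 was lower (10.7%), with a median difference of 0.03. Of the 24 at or above the median level, 12.5% reached 1.5-fold, against 10.2% of all such genes. IRS2, an adaptor that links receptor kinases to PI3 kinase, was at 9.54 and 10.42, 1.83-fold higher, by a probe set that can bind several transcripts, and had no value without such sets. STAT5A was at 6.51 and 7.23, 1.64-fold higher. PIK3R1, the main regulatory subunit of PI3 kinase, was at 7.25 and 6.53, 1.64-fold lower, but its difference was -0.51, under 1.5-fold, when averaged over its probe sets. Of 9 phosphatases and ubiquitin ligases that act on ALK or its effectors, 0 reached 1.5-fold. The ubiquitin ligases CBL and CBLB had their largest differences, 0.39 and -0.51, or 0.32 and -0.28 when averaged over their probe sets. None of 6 measured HSP90 chaperones and cochaperones, on which the fusion kinase depends for its folding, reached it either. CDC37, the cochaperone for kinases, was at 8.04 and 8.36, and HSP90AA1 was at 13.01 and 12.84.

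Of 17 genes commonly read as output of ERK signalling, which ALK activates, 4 were higher and 2 were lower (35.3%). All 17 were at or above the median level, and of all genes at or above it 10.2% reached 1.5-fold, against 7.60% of genes at any level. The list was chosen with earlier results of these data known, so no excess over these shares can be read from it. SPRY2, an inhibitor of receptor kinase signalling, was at 7.69 in untreated cells and 9.31 with IL4, 3.07-fold higher. DUSP5, a phosphatase of ERK, was at 7.79 and 9.21, 2.67-fold higher. FOSL1, an AP-1 subunit, was at 9.26 and 10.35, 2.13-fold higher. MYC, the other higher gene, was named after its values were seen and differed by 0.94, by a probe set that can bind several transcripts. Each of these 4 genes has 1 probe set, so averaging over probe sets could not change its difference. Without probe sets of shared binding, 3 genes of the list were higher and 1 was lower. The ETS factor genes ETV1 and ETV5 were 1.74-fold and 1.54-fold lower, but averaged over their probe sets they differed by -0.56 and -0.49, under 1.5-fold, and with the loess correction ETV5 differed by -0.55. DUSP6, another phosphatase of ERK, and BCL2L11, a death gene that ERK signalling holds down, were also named after their values were seen and differed by 0.0023 and 0.26. The list thus held differences in both directions, with a median of 0.09.

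Of 18 genes known as other fusion partners of ALK, 1 was higher and 0 were lower (5.56%). All 18 were at or above the median level, where 10.2% of all genes reached 1.5-fold. MYH9, a nonmuscle myosin heavy chain, was at 7.44 and 8.60, 2.24-fold higher, by its only probe set, which can bind several transcripts. The count was 2 with the loess correction, which took TPM4 from 0.53 to 0.60, and 2 with the mean over probe sets, which took PPFIBP1 from 0.17 to 0.66. Without probe sets of shared binding PPFIBP1, at 0.85, was the gene past 1.5-fold. Both genes were named after their values were seen. Of 20 other receptor tyrosine kinases, 1 was higher and 0 were lower (5%). EPHA2, a receptor for ephrins, was at 8.87 and 9.66, 1.73-fold higher. ROS1, the kinase fused in other lung adenocarcinomas, was named after its values were seen and was dim, at 3.41 and 3.74.

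EML4 and ALK lie on the same arm of chromosome 2, and the fusion arises by an inversion. RefSeq places 51 coding genes between them, and 46 were measured. Of these, 3 were higher and 5 were lower (17.4%, against 7.60% of all genes), with a median difference of -0.08. Among the 39 at or above the median level, 6 reached 1.5-fold (15.4%, against 10.2%). LBH, a transcriptional cofactor, was at 7.90 in untreated cells and 8.64 with IL4, 1.67-fold higher. QPCT, an enzyme that cyclizes the first residue of peptides, was at 6.28 and 7.07, 1.73-fold higher. LBH and QPCT have 1 probe set each, which can bind several transcripts, and without such sets 0 of the 46 genes were higher. EIF2AK2, the interferon-induced kinase PKR, was at 9.26 and 8.41, 1.80-fold lower, and -0.68 when averaged over its probe sets. SPAST, a microtubule-severing enzyme, and SLC30A6, a zinc transporter, were 1.63-fold and 1.60-fold lower, but differed by -0.56 and -0.38 when averaged over their probe sets. RASGRP3, GALM and TMEM178A, named after their values were seen, differed by 0.79, -0.66 and -0.59, and RASGRP3 and TMEM178A were dim. Without probe sets of shared binding RASGRP3 differed by -0.02 and GALM by -0.48, and averaged over probe sets they differed by 0.38 and -0.57, all under 1.5-fold. None of the 46 genes reached 2-fold. SOS1, STRN and BIRC6 lie in this stretch and also stand on other lists, and none of the 3 reached 1.5-fold.

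**Figure D4:**
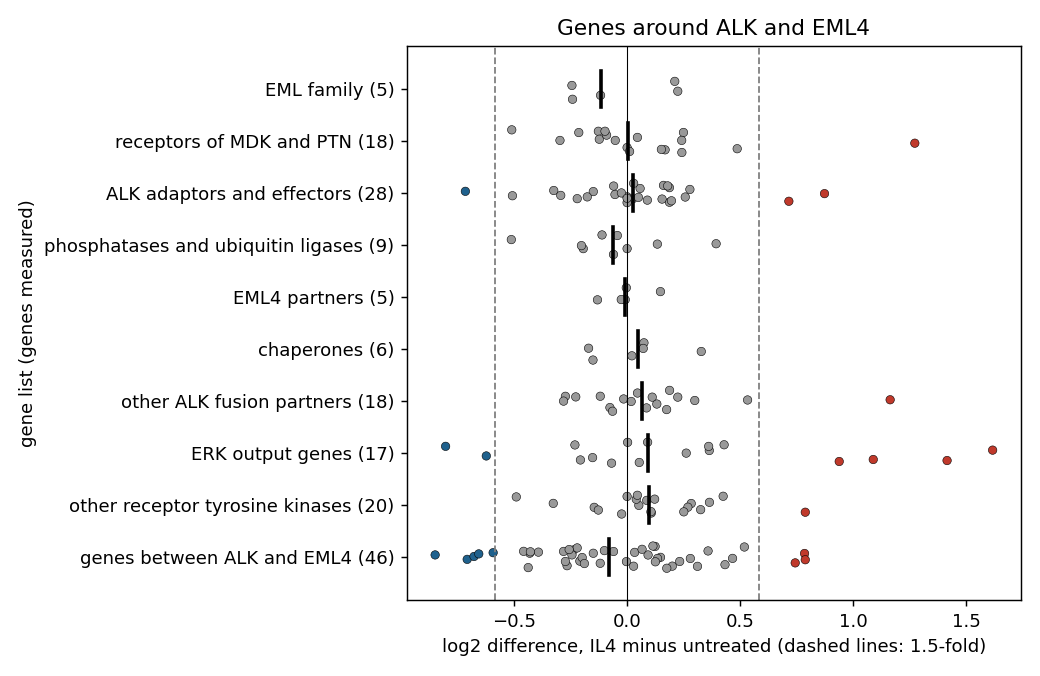
Genes of 10 lists around ALK and EML4 (rows, with the number measured) by their log2 difference IL4 minus untreated (x axis), with vertical scatter added so that points do not overlap. Vertical black bars show list medians, dashed lines stand at 1.5-fold, red points lie beyond it on the higher and blue points on the lower side: the ERK output genes have 4 red and 2 blue points and the genes between ALK and EML4 have 3 red and 5 blue.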

How the data were processed

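Gene expression was measured on 2 Affymetrix Human Genome U133 Plus 2.0 arrays, 1 of untreated and 1 of IL4-treated H2228 cells. The authors deposited log2 values from RMA, per the submitters' processing notes, which give no version. GCOS is named in the paper's methods for handling raw data. Neither background correction nor normalization could be repeated, as no scanner files were used here.

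Of the 54675 probe sets, 41097 carried 1 gene in the array annotation, and 41043 of them were updated to their current symbol by gene number through RefSeq on GRCh38.p14. The genes, the lists and the naming rule were chosen with earlier results of these data known. The rule names every probe set of the 5 genes, all genes of a list of up to 6, and from longer lists, among genes that are not dim and reached 1.5-fold, the 3 largest on the higher and on the lower side, or otherwise the 2 largest differences. The brightest probe set by mean level stood for a gene, and a difference is IL4 minus untreated. With 1 array per condition there is no error between cultures and no test, and the number of arrays limits the precision. No gene was named for a pattern like that of ALK or EML4, because 2 arrays give no pattern to compare.

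The alternatives were a loess correction (fraction 0.3), quantile normalization, centring by the median difference, 2 filters on dim probe sets, a 2-fold level, the mean over probe sets, and leaving out probe sets with the suffixes for shared binding (_s, _x and _a). The counting was tested on simulated data with far less noise than the spread of these arrays. This checks the counting steps and not their error in these data. Not analysed here were 5 of 33 adaptors and effectors, 3 of 9 chaperones, 2 of 22 receptor tyrosine kinases, 1 of 19 fusion partners and 5 of 51 genes between ALK and EML4. Python 3.11.15, numpy 2.4.6, pandas 2.3.3, statsmodels 0.14.6 and matplotlib 3.10.9 were used.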

Additional observations from a re-analysis of the deposited data

How the results depend on the processing

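With the loess correction, quantile normalization and the mean over probe sets, 0 of the 5 genes reached 1.5-fold. Centring shifted all values by 0, and a filter or a 2-fold level cannot raise a count of 0. The log2 difference of ALK was 0.17 as deposited, 0.23 with loess, 0.21 with quantile normalization and 0.20 as the mean over probe sets. That of EML4 was -0.05, 0.02, -0.02 and 0.06 in that order, so its sign turned with loess and with the mean. LTK had 0.04, 0.01, 0.01 and 0.05, and PTN had 0, -0.03, -0.04 and -0.08. MDK, with 1 probe set, had 0.19, 0.24 and 0.22. Each of these moves was under 0.25, the standard deviation between the differences of a gene's 2 brightest probe sets. It was taken over genes with both at or above the median level, whereas the probe sets of PTN are dim. It also exceeds every difference given here, so a fall to 0 would have passed as well and the comparison decides nothing. ALK and LTK gave no value once probe sets with suffixes for shared binding were left out, and PTN none with a filter on dim probe sets. Of 115 counts of the lists under alternatives that could change them, 16 moved by over 1.5 times. Among these, averaging over probe sets took the lower genes from 2 to 0 for ERK output and from 5 to 2 between ALK and EML4, and leaving out probe sets with those suffixes took the higher genes between ALK and EML4 from 3 to 0. The cause was not tested. No paired analysis was possible because each condition has 1 array, and no replicate could be left out.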
